A study of Mus musculus with 3 samples.

Results

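Pericyte-like cells were the cells of the class the authors labelled Myofibroblast II in which the summed transcript molecules of Steap4, Col4a1 and Col4a2 exceeded those of Myh11, Pcp4l1 and Mustn1. They numbered 108 of the 697 cells of that class and of the 14353 ovarian cells in all. The study asked, by its design text, whether metformin given before ovarian fibrosis sets in prevents it. Left ovaries of 3 C57BL/6 mice per condition were pooled into 1 cell suspension, the conditions were tagged with MULTI-seq lipid barcodes, and the tagged cells were run as 3 pools, called A, B and C, by 10x 3′ sequencing. The 3 conditions were aged mice that drank metformin, 350 mg/kg/day, over 6 months starting at 14 months of age (metformin), aged mice without drug (aged, whose age at collection is not given for these cells in the labels) and untreated mice of 3 months (young). All mice were wild type as far as the labels say. Metformin ovaries gave 6 pericyte-like cells, aged ovaries gave 7, and young ovaries gave 95. By pool A, B and C these were 2, 3 and 1 metformin cells, 4, 1 and 2 aged cells, and 35, 25 and 35 young cells. The labels describe 1 suspension per condition and do not say how the suspensions were divided among the pools. The pools were treated as repeat runs and each condition as 1 sample, so no difference between conditions was tested against the spread between mice. All intervals below are 95% intervals that cover counting error only.

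Pericytes are mural cells that lie inside the basement membrane of capillaries and small venules, where they contact the endothelium and help to build and stabilise the vessel wall. Vascular smooth muscle cells are the other mural type; they wrap arteries and larger vessels and carry the contractile apparatus that sets vessel tone. In the ovary, which rebuilds its blood vessels around each growing follicle and corpus luteum, pericytes take part in that cycle of vessel growth. Steap4 encodes a metalloreductase often used as a pericyte marker, and Col4a1 and Col4a2 encode the chains of type IV collagen, the main collagen of basement membranes. Myh11 encodes smooth muscle myosin heavy chain, Pcp4l1 a small calmodulin-binding protein relative, and Mustn1 a small nuclear protein abundant in muscle.

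Col4a1 and Col4a2, which gave most of the counts on the pericyte side of the rule, lie head to head on mouse chromosome 8 and are read in opposite directions. Their annotated start sites were 21 bases apart (Col4a2 starts at 11312805 on the plus strand and Col4a1 at 11312826 on the minus strand). The windows from 250 bases before to 50 bases after each start are shown because the genes share them: together they spanned only 522 bases (RefSeq, build GRCm38.p6, each written 5′ to 3′ on its gene's own strand). Capitals mark the 78 bases that stand in both windows, once on each strand.
Col4a1, chr8:11312777-11313076 (−): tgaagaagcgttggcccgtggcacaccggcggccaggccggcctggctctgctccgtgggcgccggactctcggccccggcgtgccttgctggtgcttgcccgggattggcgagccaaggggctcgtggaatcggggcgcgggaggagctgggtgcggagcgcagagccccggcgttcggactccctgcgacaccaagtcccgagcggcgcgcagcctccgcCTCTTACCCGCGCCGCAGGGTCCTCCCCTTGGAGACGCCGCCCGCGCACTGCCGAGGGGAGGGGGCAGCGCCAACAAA
Col4a2, chr8:11312555-11312854 (+): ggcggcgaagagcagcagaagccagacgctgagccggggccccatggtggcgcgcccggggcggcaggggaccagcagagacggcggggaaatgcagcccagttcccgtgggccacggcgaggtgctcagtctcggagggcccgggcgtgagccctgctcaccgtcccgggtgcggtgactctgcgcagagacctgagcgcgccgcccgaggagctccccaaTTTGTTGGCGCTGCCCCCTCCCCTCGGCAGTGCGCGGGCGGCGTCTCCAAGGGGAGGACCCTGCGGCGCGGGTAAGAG
G and C made up 74% of the Col4a1 window and 73.7% of the Col4a2 window. The letters GGGCGG (a GC box, searched on both strands, overlapping matches counted) occurred 1 time in the Col4a1 window and 3 times in the Col4a2 window. At least 1 GGGCGG occurred in 35.9% of 27025 promoter windows of the same length, in 16 of the 20 matched windows of a basement membrane gene list (80%) and in 4 of the 8 matched windows of a pericyte marker list. Such matches are letters in a window and not measured binding sites.

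The rule split the class along a wide range, shown by the plot of both marker sums per cell. The pericyte sum exceeded the smooth muscle sum by a median of 21.5 molecules (unique molecular identifiers, UMIs) and by up to 122, and by more than 10 in 84 of the 108 cells. In 26 of the pericyte-like cells no UMI of Myh11, Pcp4l1 or Mustn1 was counted. The smallest member had 1 UMI against 0. Just inside the threshold, 6 cells (1 metformin, 1 aged, 4 young) exceeded by 1 to 3 UMIs. Just outside it, 59 cells (20 metformin, 18 aged, 21 young) had sums that were equal or differed by up to 3 in the other direction, and 14 of these had equal sums. The cells just inside held 3584 CPM (counts scaled to the total UMIs of the cells summed) of Rgs5 and 2926 CPM of Acta2, and those just outside held 2532 CPM of Rgs5 and 2808 CPM of Acta2. Of the 6 cells just inside, 3 held 0 UMIs of the smooth muscle marker list and 1 held 59, so their Acta2 level is mostly that of 1 cell. Over the pericyte markers outside the rule, the median was 20 UMIs in the cells just inside and 6 UMIs in those just outside, at median depths of 2246.5 and 2000 UMIs.

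**Figure D1:**
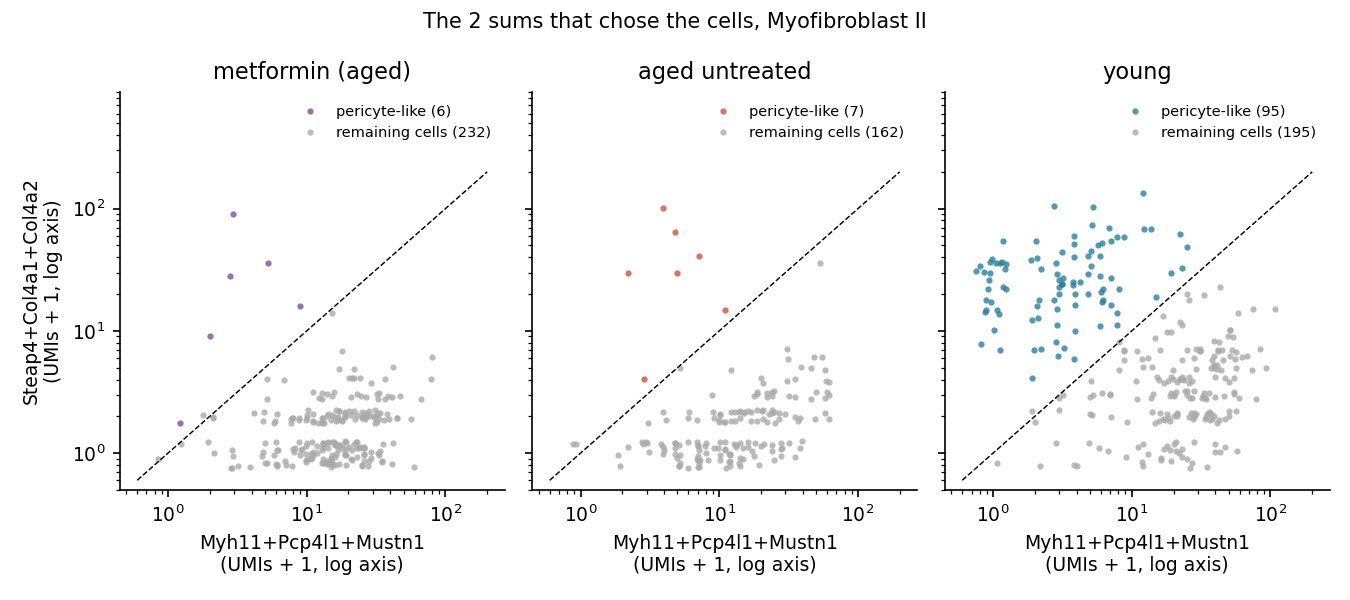
Each point is 1 Myofibroblast II cell; the x axis is the sum of Myh11, Pcp4l1 and Mustn1 UMIs and the y axis that of Steap4, Col4a1 and Col4a2 UMIs, both plus 1 on log axes, in 1 panel each for metformin, aged and young ovaries, with a dashed line where both sums are equal, pericyte-like cells in colour, remaining cells in grey, and a small random offset on each point. Above the line lie the 108 pericyte-like cells, of which 95 are young, and 59 cells lie on it or within 3 UMIs below it.

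The label held against markers that the rule did not use. Over 12 other pericyte markers (Rgs5, Pdgfrb, Cspg4, Kcnj8, Abcc9, Notch3, Vtn, Mcam, Higd1b, Ndufa4l2, Cox4i2 and Colec11), each of the 108 cells held at least 5 UMIs, with a median of 51, against a median of 5 in the remaining 589 cells of the class. Summed over the list, the level was 10958 CPM in pericyte-like cells, 3232 CPM in the remaining cells and 76.7 CPM in the rest of the series. The defining endothelial genes Pecam1, Cdh5 and Tie1 were at 0 UMIs in the pericyte-like cells, as were the natural killer cell and erythrocyte lists. A summed level of 236 CPM stood over the whole list of 12 endothelial markers, of which 5 were at 0, against 160 CPM in the remaining cells. Stromal fibroblast markers summed to 1555 CPM in pericyte-like cells and 723 CPM in the remaining cells, against 2759 CPM in the rest of the series. The other lists of immune, follicular, epithelial and nerve-sheath markers summed to at most 270 CPM, the level of the B cell list, which was at 437 CPM in the remaining cells. A UMI of Pecam1, Cdh5, Ptprc, Cd52, Star or Amh was found in 10 of the 108 cells (1 metformin, 0 aged, 9 young).

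Pericyte-like cells made up a far smaller part of the class in both groups of aged mice than in young mice. They were 2.52% of Myofibroblast II cells in metformin ovaries (6 of 238 cells, exact Clopper-Pearson interval 0.931 to 5.41%), 4.14% in aged ovaries (7 of 169, 1.68 to 8.35%) and 32.8% in young ovaries (95 of 290, 27.4 to 38.5%). The aged share was 0.126 times the young share (exact interval 0.0495 to 0.271), and the metformin share was 0.0770 times the young share (0.0276 to 0.174). Set against aged, the metformin share was 0.609 times as large, with an interval of 0.169 to 2.12 that spans 1. The difference between either aged group and young was therefore wider than counting error, and the difference between metformin and aged was not detectable at this number of cells.

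Each pool gave the same order between old and young. In pools A, B and C the share was 2.35%, 5.17% and 1.05% in metformin ovaries, 7.69%, 1.92% and 3.08% in aged ovaries, and 35.7%, 30.5% and 31.8% in young ovaries. Within pools the aged share was 0.215, 0.0631 and 0.0967 times the young share. No metformin or aged value overlapped a young one, whereas metformin and aged values overlapped. The plot of shares by condition and pool shows the same.

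**Figure D2:**
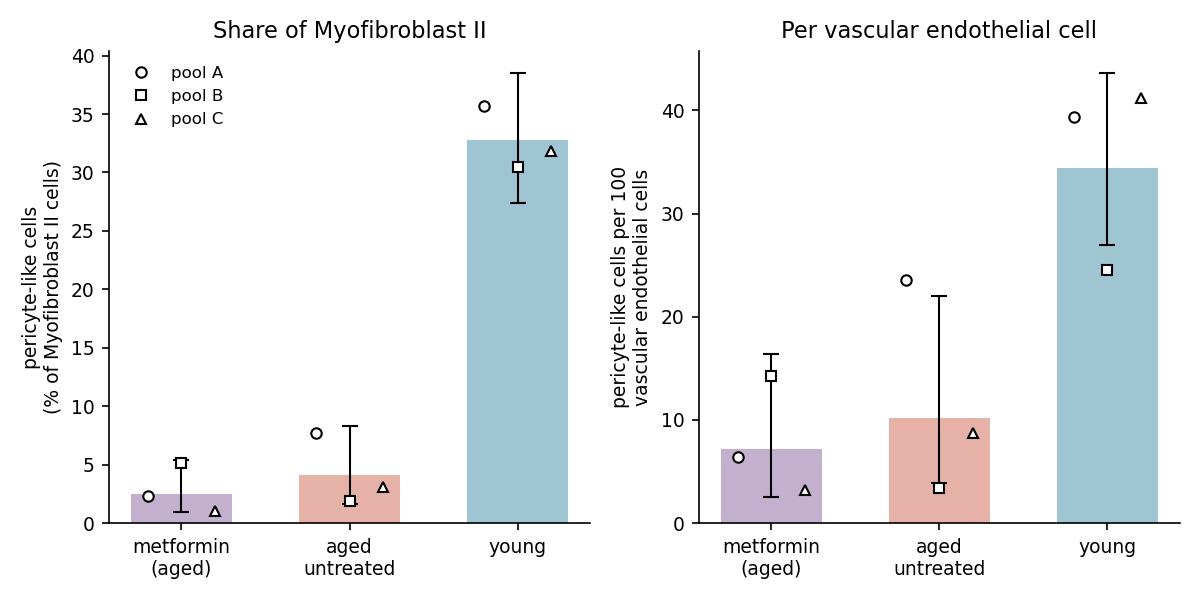
Pericyte-like cells as a percentage of Myofibroblast II cells (y axis) for metformin, aged and young ovaries; the second panel gives them per 100 vascular endothelial cells. Bars are all pools together with exact 95% intervals, and symbols are the pools. The metformin (2.52%) and aged (4.14%) bars stand under the young bar (32.8%), and per 100 endothelial cells the bars are 7.23, 10.1 and 34.4.

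The size of that gap depended on how the cells were drawn, and its direction did not in the settings run. When the class was split by 6 other pericyte genes (Rgs5, Kcnj8, Abcc9, Vtn, Notch3 and Pdgfrb) and 6 other smooth muscle genes (Acta2, Cnn1, Actg2, Smtn, Lmod1 and Des), each sum scaled by its total over the class, more cells of each condition fell on the pericyte side: 22.3% in metformin ovaries, 26.0% in aged ovaries and 52.4% in young ovaries. The aged share was then 0.497 times the young one. That split took 249 cells, kept 106 of the 108 and put 79.2% of the class on the same side. Depth moved with condition: the remaining cells had medians of 2496 UMIs (metformin), 2396 UMIs (aged) and 3466 UMIs (young), and the pericyte-like cells had medians of 6020.5, 5274 and 4633 UMIs in that order. Among cells of 3000 UMIs or more, 5.26% were pericyte-like in metformin ovaries (4 of 76), 10.5% in aged ovaries (6 of 57) and 38.0% in young ovaries (82 of 216). After each cell was thinned to 1000 UMIs the shares were 3.86%, 4.29% and 32.9% for metformin, aged and young. The part of depth in the gap was not tested.

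Against other cells of the vessel wall the gap was narrower. There were 7.23 pericyte-like cells per 100 vascular endothelial cells in metformin ovaries (2.58 to 16.4), 10.1 in aged ovaries (3.93 to 22.04) and 34.4 in young ovaries (27.0 to 43.6). The aged ratio was 0.295 times the young one (0.115 to 0.631), and the metformin ratio 0.210 times (0.0752 to 0.474). In pool A alone the aged ratio was 0.598 times the young one, with an interval of 0.154 to 1.67 that spans 1. As a part of all cells, pericyte-like cells were 0.160% in metformin ovaries, 0.235% in aged ovaries and 1.25% in young ovaries, whereas the remaining Myofibroblast II cells were 6.18%, 5.44% and 2.56% in the same order. By this rule the smooth muscle side of the class was a larger part of the cells recovered from metformin and aged ovaries, and the pericyte side a smaller one. These are shares of cells recovered by enzymatic dissociation and sorting, and recovery of pericytes by age was not tested. The rule uses Col4a1, which in metformin, aged and young ovaries was at 437, 502 and 814 CPM in fibroblasts. In the same order it was at 1136, 1404 and 1823 CPM in vascular endothelial cells, and at 201, 308 and 304 CPM over all cells outside the class. In the remaining cells of the class, which the rule itself sets apart by these genes, Col4a1 was lower in both old groups. Its log2 ratio there was −1.12 for aged over young and −1.55 for metformin over young, and that of Col4a2 was −0.94 and −1.37. The part of such differences in the rule's genes in the shares was not tested, and the split by other genes, given above, narrowed the gap.

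Few cells outside the class looked alike. At least 5 UMIs over Rgs5, Notch3, Higd1b, Ndufa4l2 and Cox4i2, a list chosen after its values were seen, were rare in all other classes. The highest share in any class and condition was 3.82%, in aged follicular granulosa cells (5 of 131). Among young fibroblasts it was 0.655% (13 of 1984). Over all cells outside the class, at least 5 such UMIs were found in 2 of 3516 metformin cells (0.0569%), 6 of 2810 aged cells (0.214%) and 18 of 7330 young cells (0.246%). Among pericyte-like cells the same was true of 6 of 6 metformin, 6 of 7 aged and 93 of 95 young cells. In the remaining Myofibroblast II cells it was true of 31.9% of metformin, 30.9% of aged and 65.1% of young cells, so the young smooth muscle side also held more cells with these transcripts, at a higher depth.

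The pericyte-like cells were higher in most measured pericyte markers and lower in smooth muscle markers than the remaining cells of their class. Counts were summed over cells and set as CPM, a scale on which 3′ counts need no correction for gene length, and a gene was called past 2-fold where log2 of the ratio, with 1 UMI added, was at least 1 in size. Of 3577 genes with at least 100 UMIs, 7.94% were past 2-fold higher in pericyte-like cells and 8.58% past 2-fold lower. Of 11 measured pericyte markers, 8 were past 2-fold higher and 0 lower, with a median log2 ratio of 2.39 against 0.09 over all genes. Of 10 measured smooth muscle markers outside the rule, 0 were higher and 10 lower, with a median of −2.85. The rule's own genes are given for scale only: Steap4 was at 417 CPM in pericyte-like cells and 7.25 CPM in the remaining cells, Col4a1 at 3636 and 331 CPM, Col4a2 at 1587 and 200 CPM, and Myh11 at 420 and 3152 CPM, while Pcp4l1 and Mustn1 had log2 ratios of −3.85 and −4.08. The rule used genes of the same cells, so these values describe the split and carry no test. The sums also pool the conditions: 95 of the 108 pericyte-like cells were young, and 195 of the 589 remaining cells. Ratios against the remaining cells, here and below, thus mix condition with kind of cell, and the part of condition was not tested.

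The pericyte markers ranged from many-fold higher in pericyte-like cells to somewhat lower. Colec11, a collectin, stood at 533 CPM in pericyte-like cells and 28.4 CPM in the remaining cells, a log2 ratio of 4.23 (3.80 to 4.69). Abcc9 and Kcnj8 encode the regulatory and pore subunits of the ATP-sensitive potassium channel of mural cells: Abcc9 was at 478 and 27.9 CPM, a log2 ratio of 4.10 (3.66 to 4.56), and Kcnj8 at 311 and 22.3 CPM, a log2 ratio of 3.80. Higd1b, Ndufa4l2 and Cox4i2 encode mitochondrial proteins long used as pericyte markers and had log2 ratios of 2.90, 2.80 and 2.41. Rgs5, a regulator of G protein signalling and the most abundant pericyte marker, was at 6001 CPM in pericyte-like cells and 1939 CPM in the remaining cells, a log2 ratio of 1.63 (1.56 to 1.70). Pdgfrb, the receptor through which endothelial PDGF-B recruits pericytes, was at 483 and 165 CPM. Notch3, the Notch receptor of mural cells, was at 422 and 377 CPM with an interval of the log2 ratio that spans 0 (−0.05 to 0.38). Mcam, an adhesion molecule, was at 133 CPM in pericyte-like cells and 176 CPM in the remaining cells. Notch3 therefore stood near equal in both, and the potassium channel and respiratory chain markers stood apart. Over all conditions Mcam was lower in pericyte-like cells, with a log2 ratio of −0.84 to −0.25 without 1 pool. The conditions did not share that direction. In aged ovaries the 7 pericyte-like cells held 11.8% of the Mcam UMIs of the class and 8.42% of its UMIs. In metformin ovaries 6 cells held 4.76% and 5.21%. Because 95 of the 108 cells were young, the values were also taken within young ovaries alone, where the log2 ratios were 3.64 for Colec11, 2.40 for Higd1b and 1.29 for Rgs5. There the pericyte-like cells held 40.9% of the UMIs of the class, 43.0% of its Notch3 UMIs and 27.6% of its Mcam UMIs. They held 91.0% of its Abcc9 UMIs, 79.7% of Ndufa4l2, 72.4% of Cox4i2 and 48.2% of Cspg4.

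**Figure D3:**
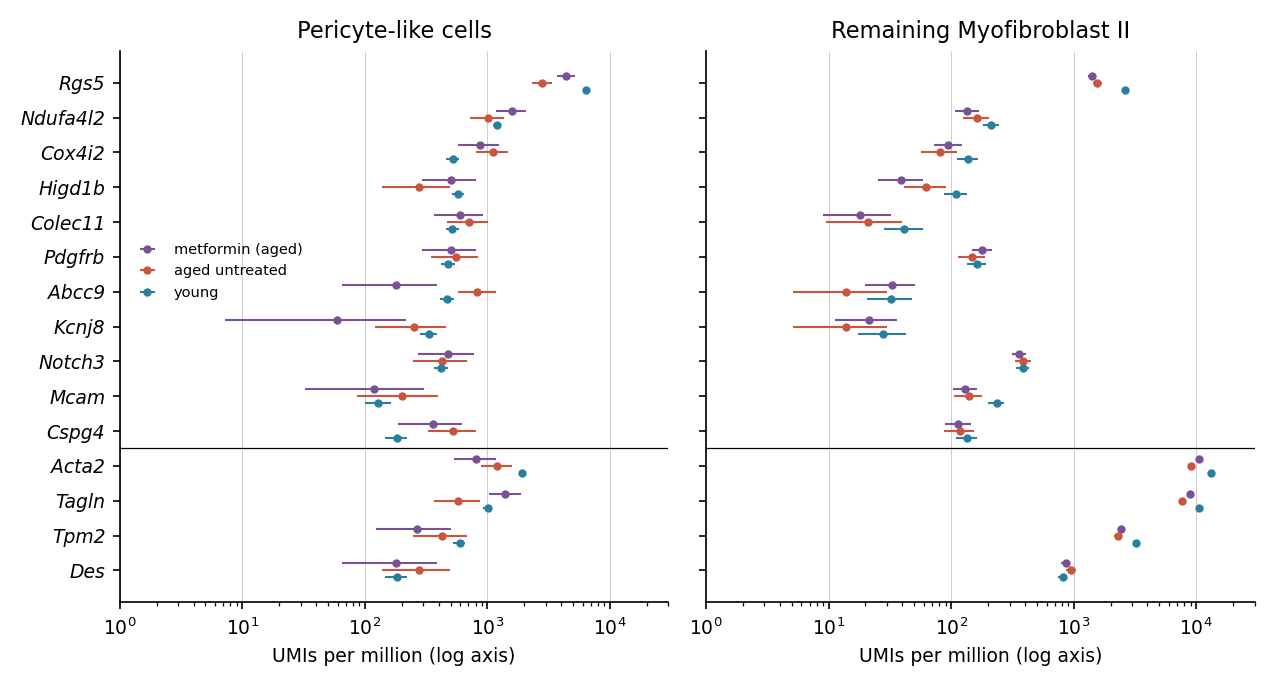
Levels of pericyte genes (above the line) and smooth muscle genes (below it) in CPM on a log axis, with exact 95% intervals, for pericyte-like cells and for the remaining Myofibroblast II cells of metformin, aged and young ovaries. Over all conditions Rgs5 is at 6001 CPM in pericyte-like cells and 1939 CPM in the remaining cells, and Acta2 at 1815 and 11225 CPM.

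Basement membrane genes differed in both directions. Of 13 measured members of that list outside the rule, 6 were past 2-fold higher in pericyte-like cells and 4 lower, with a median log2 ratio of 0.75; with the rule's own Col4a1 and Col4a2, which the choice of cells makes high, 8 of 15 were higher and the median was 1.31. Col15a1, which encodes a basement membrane collagen, had the ratio with the highest lower limit of all genes: 312 CPM in pericyte-like cells and 2.79 CPM in the remaining cells, a log2 ratio of 6.81 (5.56 to 8.45). Lamb1, the laminin beta 1 chain, was at 233 and 12.8 CPM, a log2 ratio of 4.18, and Nid1, nidogen 1, which links laminin to type IV collagen, at 235 and 17.8 CPM. Sparc, a collagen-binding matrix protein, was at 3238 and 847 CPM. Lower members were the laminin alpha 5 chain Lama5 (8.44 CPM in pericyte-like cells and 86.4 CPM in the remaining cells), Lamb2 (37.1 and 142 CPM), Col4a5 (11.8 and 78.6 CPM) and Hspg2, which encodes perlecan (10.1 and 65.2 CPM). Both kinds of mural cells thus differed in which chains of laminin and of type IV collagen were high.

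Of 15 measured fibrillar collagen and matrix genes, 7 were past 2-fold higher and 3 lower, with a median log2 ratio of 0.87. Fn1, fibronectin, was at 255 CPM in pericyte-like cells and 5.02 CPM in the remaining cells, a log2 ratio of 5.67. Col3a1, type III collagen, was at 684 and 53.0 CPM, Fbn1, fibrillin 1, at 223 and 26.8 CPM, and Fbn2, fibrillin 2, at 334 and 10.6 CPM. Eln, which encodes elastin of arterial walls, was at 5.06 CPM in pericyte-like cells and 60.2 CPM in the remaining cells. The fibroblast markers given above were also higher in pericyte-like cells, at 1555 CPM, and their part in these matrix values was not tested. Fibroblasts of the series held 941 CPM of Col3a1.

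Genes outside those lists at high ratios were Fabp5, a fatty acid-binding protein (1106 CPM in pericyte-like cells and 24.5 CPM in the remaining cells, log2 5.49), Cygb, cytoglobin (539 and 15.6 CPM, log2 5.11), Nostrin, which binds endothelial nitric oxide synthase (267 and 11.7 CPM, log2 4.51), and the interferon-inducible genes Ifi204 (231 and 10.0 CPM, log2 4.53) and Ifi27l2a (854 and 55.2 CPM, log2 3.95). Of 10 measured interferon response genes 8 were past 2-fold higher and 0 lower, with a median of 1.19. Ifitm3 and Ifitm1, interferon-induced transmembrane proteins, were at 2456 and 854 CPM in pericyte-like cells, against 779 and 97.5 CPM in the remaining cells. Cytokines and chemokines had 3 of 4 higher, 0 lower and a median of 1.62.

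Genes of signalling in the vessel wall divided between both kinds of cells. Of 28 measured mural signalling genes 3 were past 2-fold higher in pericyte-like cells and 11 lower, with a median of −0.56. The lower ones included 3 inhibitors of differentiation that respond to bone morphogenetic proteins, Id1 (245 CPM in pericyte-like cells and 599 CPM in the remaining cells), Id2 (52.3 and 246 CPM) and Id4 (27.0 and 74.7 CPM), and the Notch targets Hes1 (272 and 698 CPM) and Hey2 (40.5 and 118 CPM). Heyl, another Notch target, was higher at 122 CPM in pericyte-like cells and 51.8 CPM in the remaining cells, so Notch targets did not share 1 direction. Pdgfa, a growth factor ligand, was at 89.5 and 222 CPM, and Pdgfrb, the PDGF-B receptor given above, was higher.

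Of 21 measured genes of vascular tone 6 were past 2-fold higher and 4 lower, with a median of 0.35. Beside Rgs5, Kcnj8 and Abcc9, the higher ones were Rgs16, a further regulator of G protein signalling, Trpc6, a cation channel (184 CPM in pericyte-like cells and 76.9 CPM in the remaining cells), and Ano1, a calcium-activated chloride channel (177 and 74.7 CPM). Pde3a was lower, at 236 and 705 CPM. Of 11 matrix protease genes 5 were higher and 1 lower. Plat, tissue plasminogen activator, was at 527 CPM in pericyte-like cells and 42.4 CPM in the remaining cells, and Adamts4 at 246 and 28.4 CPM, while its relative Adamts5 was at 43.9 and 454 CPM. The transcription factor Tcf21 was at 184 CPM in pericyte-like cells and 44.6 CPM in the remaining cells, and Tsc22d1 at 311 and 2126 CPM. Both shares for these lists can be read against the 7.94% and 8.58% of all genes.

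Contractile genes were low but seldom absent. Of 35 measured contraction genes 1 was past 2-fold higher and 27 were lower, with a median log2 ratio of −2.12. The higher one was Tpm4, a non-muscle tropomyosin, at 692 CPM in pericyte-like cells and 206 CPM in the remaining cells. Acta2, smooth muscle actin, was at 1815 and 11225 CPM, Tagln, transgelin, at 999 and 9255 CPM, and Myocd, the coactivator that switches on contractile genes, at 8.44 and 90.9 CPM. Pln, phospholamban, the inhibitor of the calcium pump of the sarcoplasmic reticulum, gave 3 UMIs in pericyte-like cells and 859 UMIs in the remaining cells. Rergl, a Ras-like gene, gave 0 UMIs and 444 UMIs, and Tcap, the sarcomere protein telethonin, 0 and 195. Sncg, a synuclein, gave 7 UMIs in pericyte-like cells and 1130 UMIs in the remaining cells, Sorbs2, an adaptor of actin-rich adhesions, 4 and 524, and Ramp1, the partner of the receptor for calcitonin gene-related peptide, 4 and 491. Npy1r, a receptor for the vasoconstrictor neuropeptide Y, was at 5.06 CPM in pericyte-like cells and 143 CPM in the remaining cells. Mitochondrially encoded transcripts had a median log2 ratio of −0.70 with 0 of 12 past 2-fold, and immediate early genes, which dissociation induces, had 0 higher and 7 lower of 31.

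Smooth muscle actin divided the pericyte-like cells among themselves. No Acta2 UMI was counted in 3 of 6 metformin, 3 of 7 aged and 39 of 95 young pericyte-like cells, whereas 36 of the young ones held more than 1000 CPM. The median over the young cells was 272 CPM. In the remaining cells 18 of 589 held no Acta2 UMI and the median was 9816 CPM. Rgs5 and Col4a1, by contrast, were found in 100% of the young pericyte-like cells, Ndufa4l2 in 95.8%, Pdgfrb in 88.4%, Colec11 in 84.2%, Steap4 in 72.6% and Vtn, vitronectin, in 14.7%.

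Sums over the whole class were compared as labelled and as rebuilt with the young proportion of UMIs from pericyte-like cells. Pericyte-like cells held 5.21% of the UMIs of the class in metformin ovaries, 8.42% in aged ovaries and 40.9% in young ovaries. The rebuilt sums give that larger weight to 7 aged or 6 metformin cells and are a description only. In the class as a whole the median log2 ratio of aged over young was −1.31 for the 11 pericyte markers, with 6 past 2-fold lower. When the aged sum was rebuilt from the same aged cells with 40.9% of UMIs from pericyte-like cells, the median was 0.02 and 2 of the 11 were past 2-fold lower. For 11 basement membrane genes outside the rule the median was −0.80 as labelled and −0.42 as rebuilt, and those past 2-fold lower numbered 5 as labelled and 1 as rebuilt. For 12 fibrillar matrix genes the median was −1.03 as labelled and −0.22 as rebuilt, with 7 and 2 past 2-fold lower. Smooth muscle markers went the other way, with a median of 0.10 as labelled and −0.40 as rebuilt. For metformin over young the pericyte marker median was −1.41 as labelled and 0.03 as rebuilt, and the basement membrane median −0.83 and −0.67.

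Single genes outside the rule moved by unequal amounts. Aged over young, Lamb1 had a log2 ratio of −2.13 in the class and 0.15 as rebuilt, Col15a1 −2.54 and −0.26, and Kcnj8 −2.17 and −0.45. Rgs5 had −1.31 in the class and −1.001 as rebuilt, and Sparc −1.49 and −0.55. The log2 ratio of Rgs5 as rebuilt thus stayed near that of the class, and those of Lamb1 and Col15a1 did not. In the rebuilt sum 7 aged cells carry 40.9% of the UMIs. Lamb1 and Col15a1 were each at 23.3 CPM in the aged class, and 100% of that came from those 7 cells. The rebuilt values have no interval, and what sets them apart was not tested. Col4a1 had −1.50 in the class and 0.27 as rebuilt, but the cells given more weight were chosen on it, so its return is fixed by the rule and is shown as a description only. Col4a5, a type IV collagen gene outside the rule, had 0.37 in the class and −0.27 as rebuilt.

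**Figure D4:**
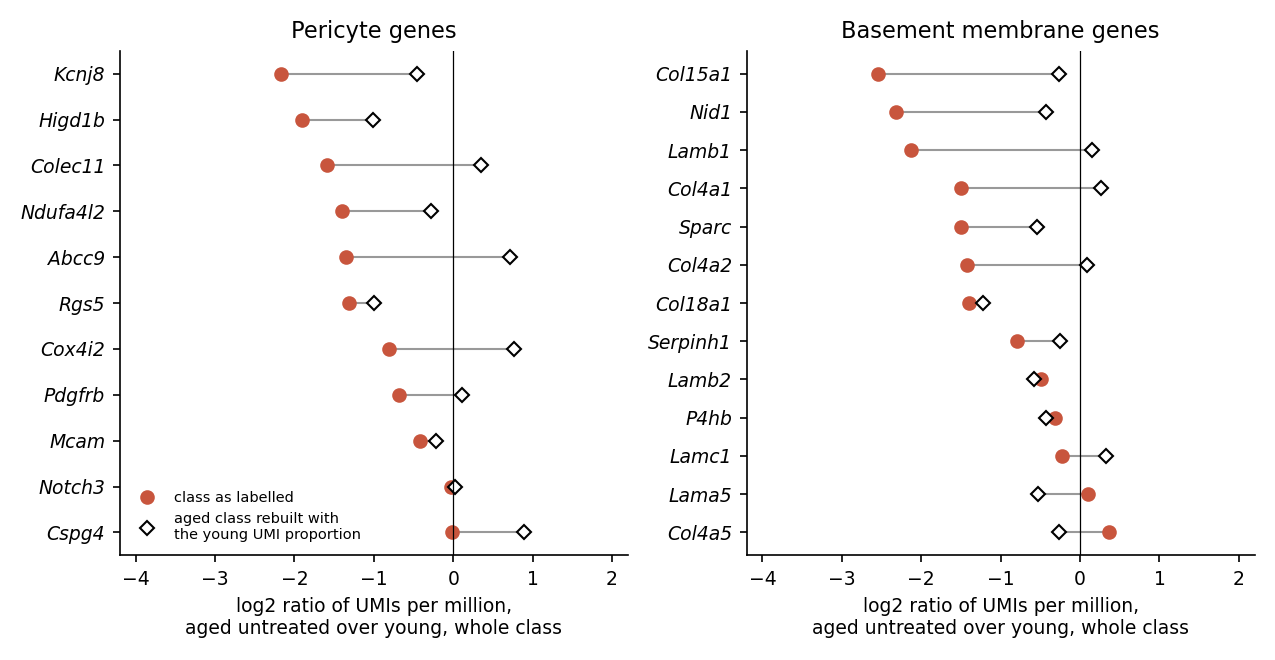
Log2 CPM ratio of aged over young for pericyte genes and basement membrane genes in Myofibroblast II: filled points are the whole class as labelled, and open diamonds the aged class rebuilt with the young proportion of UMIs from pericyte-like cells. Lamb1 is at −2.13 in the class and 0.15 as rebuilt, and Rgs5 at −1.31 and −1.001; Col4a1 and Col4a2 are genes of the rule, and their shift is fixed by it.

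Within the pericyte-like cells, aged ovaries gave 39793 UMIs from 7 cells, and young ovaries 518983 UMIs from 95 cells. Of 3133 genes with at least 30 UMIs over both, 3.51% were past 2-fold higher in aged cells and 10.8% past 2-fold lower, with a median log2 ratio of −0.07. The balance of the 2 shares hung on the added UMI, which was 1 in the smaller total and in proportion more in the larger. With 1 UMI added to both sums alike, an alternative chosen after seeing the data, 10.4% were higher and 7.18% lower and the median of all genes was 0.20, so the named genes below were chosen by their intervals, which hold no added UMI. Markers of other cells moved between the conditions at low levels: the endothelial list summed to 427 CPM in aged and 225 CPM in young pericyte-like cells, the fibroblast list to 1156 and 1541 CPM, and the macrophage list to 151 and 94.4 CPM. Their part in the ratios was not tested. Of 11 measured pericyte markers, 2 were past 2-fold higher and 2 lower, with a median of 0.21 that was −0.59 without pool A, which held 4 of the 7 aged cells.

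Rgs5 was lower in aged pericyte-like cells. The 7 aged cells held 1, 4, 11, 17, 20, 29 and 29 Rgs5 UMIs. Its level was 2789 CPM in aged cells and 6351 CPM in young cells, a log2 ratio of −1.19 (−1.47 to −0.91), and young pools A, B and C gave 6131, 6602 and 6384 CPM. Leaving out 1 pool put the log2 ratio at −1.36 to −1.03. In the remaining cells of the class Rgs5 was likewise lower in aged ovaries, at 1563 CPM in aged cells and 2598 CPM in young cells. Higd1b was at 276 CPM in aged cells and 578 CPM in young cells, a log2 ratio of −1.06 (−2.08 to −0.20).

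The type IV collagen genes, on which the cells were chosen, are given as a description. The aged cells held 2, 8, 20, 20, 33, 40 and 71 Col4a1 UMIs, or 4875 CPM in aged cells against 3590 CPM in young cells (young pools 3992, 3249 and 3463 CPM). Col4a2 was at 1885 CPM in aged cells and 1549 CPM in young cells, and Steap4 at 251 and 422 CPM with an interval of the log2 ratio from −1.83 to 0.16. Their order rested on pool A: without it the log2 ratio was 0.01 for Col4a1 and −0.76 for Col4a2, and Col4a1 was at −0.21 after thinning to 1000 UMIs. Of 13 basement membrane genes outside the rule, 0 were past 2-fold higher and 2 lower, beside 3.51% and 10.8% of all genes, with a median of −0.18.

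Other pericyte markers scattered around the young level. Cspg4, the NG2 proteoglycan, was at 528 CPM in aged cells and 181 CPM in young cells, a log2 ratio of 1.54 (0.79 to 2.24), with at least 1 UMI in all 7 aged cells. Cox4i2 was at 1106 and 520 CPM, a log2 ratio of 1.09 (0.59 to 1.55). Abcc9 was at 829 and 470 CPM, a log2 ratio of 0.82 that was −0.71 without pool A. Pdgfrb (553 and 476 CPM), Notch3 (427 and 418 CPM), Ndufa4l2 (1005 and 1200 CPM) and Kcnj8 (251 and 331 CPM) differed by less than counting error, and Notch3 was at a log2 ratio of −0.71 without pool A.

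Cxcl10, an interferon-induced chemokine that draws T cells, had the ratio that lay farthest above 0 by its lower limit. Its start-site window is shown for the motif matches it holds (RefSeq, build GRCm38.p6, minus strand, 5′ to 3′). Capitals mark a match to GAAA, any 2 bases and GAAA, an interferon-response type motif, and a match to the kB site, bound by NF-κB, both searched on both strands.
Cxcl10, chr5:92348840-92349139 (−): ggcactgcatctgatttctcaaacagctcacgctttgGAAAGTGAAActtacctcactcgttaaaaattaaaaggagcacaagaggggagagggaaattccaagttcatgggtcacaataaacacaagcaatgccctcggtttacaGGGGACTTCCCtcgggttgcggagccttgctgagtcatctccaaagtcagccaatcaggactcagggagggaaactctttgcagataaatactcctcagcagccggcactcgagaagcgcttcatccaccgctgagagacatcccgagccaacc
The kB site matched at 2 overlapping places. The interferon-response type motif was held by 3.49% of the 27025 windows and by 13 of 26 windows of the interferon response list, and the kB site by 5.55% of all windows. The 7 aged cells held 0, 0, 1, 4, 5, 20 and 22 Cxcl10 UMIs, so 2 cells gave most of them, whereas 12 of the 95 young cells held any. Its level was 1307 CPM in aged cells and 137 CPM in young cells, a log2 ratio of 3.26 (2.71 to 3.79). The log2 ratio was 1.10 without pool A, 4.52 without pool B and 2.67 without the top cell. In the remaining cells of the class it was 64.7 CPM in aged and 17.3 CPM in young ovaries, in fibroblasts 436 and 265 CPM, in vascular endothelial cells 778 and 766 CPM, and in all cells outside the class 260 and 160 CPM. Higher Cxcl10 in aged ovaries was thus not limited to the pericyte-like cells, where it rests on few cells.

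Further genes higher in aged pericyte-like cells were Irf1, an interferon-induced transcription factor (704 CPM in aged cells and 260 CPM in young cells, log2 1.44, 0.79 to 2.03), Gsta3, a glutathione transferase (276 and 55.9 CPM, log2 2.31, 1.16 to 3.35, and 1.10 without pool A), and Nfkbia, the inhibitor of NF-κB that NF-κB itself induces (528 and 185 CPM, log2 1.51, but −0.51 without pool A). Irf1 and Nfkbia were higher in fibroblasts of aged ovaries too, which held 307 CPM of Irf1 and 535 CPM of Nfkbia, against 194 CPM and 323 CPM in fibroblasts of young ovaries. In vascular endothelial cells of aged and young ovaries, Irf1 was at 385 and 308 CPM and Nfkbia at 561 and 565 CPM. Adnp, Rnf216, Sdc3, Mrvi1 and Idh1 completed the named ones, at log2 ratios of 1.80 to 2.12. When cells were thinned to 1000 UMIs, Idh1 was at −0.16. Of 14 interferon response genes 3 were past 2-fold higher (Irf1, Bst2 and Xaf1) and 4 lower, with a median of 0.06. Members of the list thus lay on both sides of the young level, in larger shares than the 3.51% and 10.8% of all genes.

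Genes lower in aged pericyte-like cells included Csrp2, a LIM protein of smooth muscle (1 UMI in aged cells and 167 UMIs in young cells), S100a6, a calcium-binding protein (1 and 146 UMIs), Pde3a, a phosphodiesterase of cyclic nucleotides (1 and 133 UMIs), and Ccn2, a matricellular target of TGF-beta and YAP (2 and 177 UMIs). Vim, vimentin, was at 302 CPM in aged cells and 996 CPM in young cells, a log2 ratio of −1.72, or −3.98 without pool A. Id3, a target of bone morphogenetic protein signalling, was at 1081 and 2447 CPM, a log2 ratio of −1.18 (−1.65 to −0.74), or −2.34 without pool A, and was at 1432 and 2477 CPM in the remaining cells. Cebpd, an inflammation-induced transcription factor, was at 302 CPM in aged cells and 1060 CPM in young cells, a log2 ratio of −1.81 (−2.77 to −0.997), while in the remaining cells it was higher in aged ovaries, at 924 and 592 CPM. Nudt4 and Rasl11a were the other named genes, at −2.26 and −1.56, with Rasl11a at −0.71 without pool B and −2.51 without pool C. Vim and Id3 were thus lower in both kinds of mural cells from aged ovaries, and Cebpd differed in direction between them, a contrast that was not tested.

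**Figure D5:**
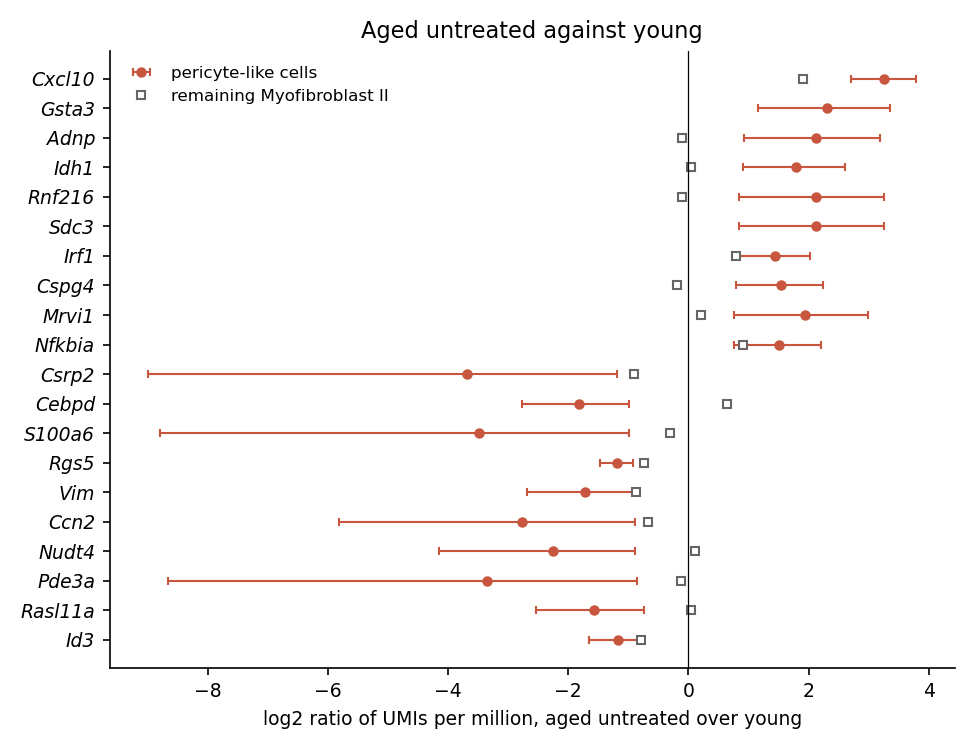
Log2 CPM ratio of aged over young in pericyte-like cells for the named genes, with exact 95% intervals for counting error; open squares are the remaining cells of the class, left out where a sum is 0. Cxcl10 is at 3.26 and Csrp2 at −3.68, with intervals that are wide for genes of few UMIs.

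Of the other lists, 2 of 19 fibrillar matrix genes were past 2-fold higher in aged cells and 5 lower, with a median of −0.04. The higher ones were Col6a1 (377 CPM in aged cells and 98.3 CPM in young cells) and Col6a2 (251 and 67.4 CPM), which encode chains of type VI collagen. Contraction genes gave 1 higher and 3 lower of 27, smooth muscle markers 0 and 0 of 5, vascular tone genes 0 and 5 of 18, mural signalling genes 3 and 3 of 24, hypoxia genes 1 and 4 of 9, and immediate early genes 1 and 2 of 31. Beside the 3.51% higher and 10.8% lower of all genes, the 3 of 27 contraction genes lower lie near the share of all genes, and the 5 of 18 for vascular tone, 5 of 19 for fibrillar matrix and 4 of 9 for hypoxia lie above it. Mitochondrially encoded genes had a median of −0.32.

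Between metformin and aged ovaries only 6 and 7 pericyte-like cells could be compared, with 33588 and 39793 UMIs. Of 336 genes with at least 30 UMIs, 2.68% were past 2-fold higher in metformin cells and 6.25% lower. The fibroblast list summed to 2233 CPM in metformin cells and 1156 CPM in aged cells, the endothelial list to 179 and 427 CPM, and the macrophage list to 327 and 151 CPM. Their part in the ratios was not tested. Cxcl10 gave 2 UMIs in metformin cells (0, 0, 0, 0, 0 and 2) and 52 UMIs in aged cells, a log2 ratio of −4.46 (−7.54 to −2.53) that was −1.86 without pool A. Abcc9 was at 179 CPM in metformin cells and 829 CPM in aged cells, with all 6 metformin UMIs in 1 cell, a log2 ratio of −2.21 that was 0.04 without pool A. Itga1, the alpha 1 integrin that binds type IV collagen (298 and 1156 CPM, log2 −1.96), and Ifitm2 (298 and 955 CPM, log2 −1.68) were also lower. Elsewhere Cxcl10 and Ifitm2 did not share 1 direction. In metformin and aged ovaries Cxcl10 was at 1187 and 778 CPM in vascular endothelial cells, and at 418 and 436 CPM in fibroblasts. Ifitm2 was at 1218 and 954 CPM in vascular endothelial cells, and at 1029 and 1048 CPM in fibroblasts. Over all cells outside the class Cxcl10 was at 221 and 260 CPM, and Ifitm2 at 676 and 820 CPM. H3f3b, a histone H3.3 gene, was higher at 6103 CPM in metformin cells and 2488 CPM in aged cells, a log2 ratio of 1.29 (0.94 to 1.66) that was −0.22 without pool B. Abcc9 and H3f3b thus lost their direction with 1 pool left out, while Itga1 stayed at −1.54 or lower and Ifitm2 at −2.07 to −1.19.

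Rgs5 was at 4406 CPM in metformin cells (4, 14, 21, 33, 34 and 42 UMIs) and 2789 CPM in aged cells, a log2 ratio of 0.66 (0.30 to 1.03) that was 0.24 to 1.20 without 1 pool, and the ranges over cells overlapped. Col4a1, on which the cells were chosen, is given as a description: 2888 CPM in metformin cells (0, 3, 7, 15, 23 and 49 UMIs) and 4875 CPM in aged cells, a log2 ratio of −0.76 that was −1.37 to −0.17 without 1 pool. Pericyte markers had 0 past 2-fold higher and 1 lower of 8, and basement membrane genes outside the rule 0 and 0 of 2. Interferon response genes had 0 higher and 2 lower of 4, with the 2.68% and 6.25% of all genes beside them.

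Set against young cells, metformin cells had 3.53% of 3091 genes past 2-fold higher and 10.5% past 2-fold lower. With 1 UMI added to both sums alike the shares were 12.8% and 8.12%. This comparison shares its young cells with that of aged and young. Here the fibroblast list summed to 2233 CPM in metformin cells and 1541 CPM in young cells. The endothelial list summed to 179 and 225 CPM and the macrophage list to 327 and 94.4 CPM, and their part in the ratios was not tested. Pericyte markers had 0 higher and 2 lower of 11, with a median log2 ratio of 0.08. Rgs5 was at 4406 CPM in metformin cells and 6351 CPM in young cells, a log2 ratio of −0.53 (−0.78 to −0.29, and −0.90 to −0.16 without 1 pool), beside −1.19 for aged over young. The 2 lower markers were the potassium channel subunits Kcnj8 (2 UMIs in metformin cells and 172 UMIs in young cells, log2 −2.48) and Abcc9 (179 and 470 CPM, log2 −1.40, −2.86 to −0.25). Without 1 pool Abcc9 was at −0.74 to −0.67 and Kcnj8 at −2.34 to −1.60. Steap4, a gene of the rule, was at 536 and 422 CPM, Pdgfrb at 506 and 476 CPM, and Ndufa4l2 at 1578 and 1200 CPM. Cebpd gave 6 UMIs in metformin cells and 550 UMIs in young cells, a log2 ratio of −2.57 (−4.02 to −1.44), beside −1.81 for aged over young.

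The chemokines Cxcl1 and Ccl2 gave 0 UMIs in metformin cells and 172 and 105 UMIs in young cells. With a floor of 3 UMIs for 0 counts, their log2 ratios were −1.89 or lower for Cxcl1 and −1.18 or lower for Ccl2. Id1, another target of bone morphogenetic protein signalling, gave 0 UMIs in metformin cells and 134 UMIs in young cells, a log2 ratio of −1.53 or lower. In the interferon response list 0 were higher and 5 lower of 13, beside 3.53% and 10.5% of all genes (12.8% and 8.12% with 1 UMI added to both sums alike). Acta2 was at 804 CPM in metformin cells and 1927 CPM in young cells, a log2 ratio of −1.26 that was 0.01 after thinning and −2.38 without pool A. Higher genes were Cgnl1, a tight junction protein (log2 2.31), Hspa9, a mitochondrial chaperone (327 and 84.8 CPM, log2 1.95), Tor1aip2 (log2 2.06), Ndrg2 (625 and 220 CPM, log2 1.51) and Gas5, a host transcript of small nucleolar RNAs (982 and 437 CPM, log2 1.17), of which Ndrg2 and Gas5 were also higher in the remaining metformin cells, with Ndrg2 at 607 CPM in metformin and 369 CPM in young cells, and Gas5 at 806 and 411 CPM. Without pool B, Hspa9 was at 1.08 and Ndrg2 at 0.71, and without pool A Gas5 was at 0.59. Basement membrane genes outside the rule gave 1 higher and 1 lower of 13, near the share of all genes, with a median of −0.26, and contraction genes 0 and 4 of 27.

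Facts of the libraries that touch these values are few. Each cell held at least 500 UMIs and at most 20.0% mitochondrial counts, and pericyte-like cells had 930 to 19330 UMIs with median mitochondrial shares of 2.08% (metformin), 1.61% (aged) and 1.92% (young). Cell barcodes shared between pools numbered 26 over the series, and 1 of them was among the pericyte-like cells. The deposited doublet column marked 0 cells, and no doublet caller was run here.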

How the data were processed

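Single-cell RNA-seq counts of ovarian cells tagged by condition were taken as deposited by the authors: raw UMI counts per gene and cell, made with Cell Ranger 3.0.2 on GRCm38, per the submitters' processing notes. Class labels, condition, pool and percent of mitochondrial counts per cell came from the table the authors deposited beside the counts; how its mitochondrial percent filter was set and how cells were labelled was not stated in those notes. Every cell column of the count table was used (0 were left out), and 16 marker lists and 26 other gene lists were written by hand.

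The members and the gene lists were chosen with earlier results of these data known. UMIs were summed per condition and kind of cell, scaled to CPM and compared as log2 ratios with exact 95% intervals conditional on the sum of both counts; shares have exact Clopper-Pearson intervals. Intervals cover counting error only. Each condition was 1 suspension, so no test was made. For calls past 2-fold and medians of lists, 1 UMI was added to the sum with the smaller total and in proportion more to the other. Genes needed 30 UMIs over both conditions, or 100 against the remaining cells. Named were the up to 10 genes in each direction between conditions, and 12 against the remaining cells, ranked by the interval limit nearest 0. That limit had to lie beyond 0.58. No cell could hold over 50% of the gene's UMIs in the condition, or kind of cell, where it was higher. The side where it was lower had no such limit. Gene models, Malat1, Xist and the haemoglobin, ribosomal protein and mitochondrial genes were left out. The genes of the rule, 8 pericyte genes and the members of each list with the most UMIs could be named too. The genes Col6a1, Col6a2, Bst2, Xaf1, Lama5, Lamb2, Col4a5, Hspg2, Eln, Tpm4, Myocd, Npy1r and the others named as members of a list past 2-fold were chosen after their values were seen. Agreement of the pools was asked only of pools with at least 5 cells of both conditions, of which there were 0.

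Start-site windows were RefSeq sequence (GRCm38.p6) matched by symbol. The ratio calculation was tested on simulated counts. Python 3.11.15, numpy 2.4.6, scipy 1.17.1, pandas 2.3.3 and matplotlib 3.10.9 were used. Alternatives covered depth, scaling, added UMIs, UMI minimum, the threshold, the rule's genes, single pools and top cells.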

Additional observations from a re-analysis of the deposited data

How the results depend on the processing

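The young share stood above the aged and metformin shares in every setting run. Aged stood above metformin in every setting run over all pools. Leaving out 1 pool put the shares at 1.67 to 3.50% (metformin), 2.56 to 5.13% (aged) and 31.3 to 33.7% (young). Aged over young was then at 0.0821 to 0.152, metformin over young at 0.0495 to 0.105, and metformin over aged at 0.325 to 1.02. The last range spans 1, so the order of aged and metformin was not stable to leaving out 1 pool. The split by 6 other pericyte and 6 other smooth muscle genes gave 22.3, 26.0 and 52.4% of the class and 1.41, 1.48 and 1.99% of all cells (metformin, aged, young), with ratios of 0.425 (metformin over young) and 0.497 (aged over young). Cells of 3000 UMIs or more, chosen after seeing the data, gave 10.5% in aged ovaries, with ratios of 0.139 (metformin over young) and 0.277 (aged over young). Counts of genes past 2-fold moved most, and the cause was not tested. Against the remaining cells, 12.1% of genes were higher at a minimum of 10 UMIs, and the basement membrane median was 2.27 after thinning. Aged over young, the share higher was 5.75% as a mean over cells, 0.383% with 5 UMIs added, 10.4% with 1 UMI added to both sums alike and 1.81% at a minimum of 100 UMIs, and 3.09 to 4.17% without 1 pool; the share lower was 0.702%, 7.18% and 5.20% in the last 3 of those settings and 10.1 to 19.3% without 1 pool. Metformin over aged, the share higher was 5.00% after thinning, 1.49% with 5 UMIs added, 8.22% and 0.917% at minimums of 10 and 100 UMIs, 1.28% without cells holding 6 other markers and 1.93 to 6.63% without 1 pool; the share lower was 0.00%, 2.98%, 9.39% and 0.00% in the first 4 of those settings and 8.29 to 10.8% without 1 pool, where the basement membrane median was −0.69 to −0.016. Metformin over young, the share higher was 5.44% with 0.5 UMI added, 0.226% with 5 UMIs added, 12.8% with 1 UMI added to both sums alike, and 5.54% and 1.03% at minimums of 10 and 100 UMIs; the share lower was 0.809% with 5 UMIs added. Among named genes whose interval excluded 0, signs turned in 4 of 22 (aged over young), 2 of 7 (metformin over aged), 2 of 15 (metformin over young) and 0 of 29 (against the remaining cells); where the interval spanned 0 they turned in 6 of 9, 7 of 10, 8 of 10 and 0 of 2, Col4a2, Notch3 and Steap4 among them. Of the 8 with an interval that excluded 0, signs turned for Idh1 (−0.16) and Col4a1 (−0.21) after thinning and without pool A for Nfkbia (−0.51 to 1.86 without 1 pool) and Abcc9 (−0.71 to 0.98), all aged over young; without pool A for Abcc9 (−1.71 to 0.043) and without pool B for H3f3b (−0.22 to 2.08), metformin over aged; and for Acta2 (0.0062, thinned) and, without pool B, Col4a1 (−0.86 to 0.012), metformin over young. No paired analysis was possible because the labels describe 1 suspension per condition and tie no pool to a mouse, so no test was made. With 6 metformin and 7 aged pericyte-like cells, depth limits every value of these groups: 1 cell or 1 pool can set a ratio, and genes of few UMIs cannot be compared.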

Other observations

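Some transcripts stood in single pericyte-like cells. Ren1, renin, gave 22 UMIs in 1 metformin cell, 9 UMIs in 1 young cell and 0 UMIs in aged cells. The proliferation genes Top2a (19 of 22 UMIs) and Mki67 (19 of 21 UMIs) came from 1 young cell. Cxcl14, a chemokine, had 59 of 76 UMIs in 1 cell, and Fabp4, a fatty acid-binding protein of capillary endothelium and fat, 38 of 67. The monocyte chemokine Ccl2 gave 105 UMIs in young pericyte-like cells, of which 33, 32 and 22 came from 3 of the 16 cells that held any. Cxcl1, a neutrophil chemokine, gave 64 UMIs in aged cells, 45 of them in 1 cell. Except Cxcl1 and Ccl2, which the rule of size names for metformin against young, these genes were chosen after their values were seen, and none is given here as a difference between conditions.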
